A study of Danio rerio with 6 samples.

Results

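The genes described here encode proteins that build, cap, cut and bundle actin filaments, or that switch actin assembly and adhesion in moving blood cells. They were chosen by name: subunits of the Arp2/3 complex and of capping protein, coronins, cofilins, profilins, the WASP-interacting proteins, vav and dock exchange factors, tropomodulins, leiomodins, kindlins, RhoGDIs, and single genes such as wasb, lcp1, hcls1 and evlb. The rule found 43 genes among 15292 in the table. Messenger RNA came from the kidney marrow of 6 zebrafish. Of these, 3 were grna-/- mutants with both copies of the granulin gene grna mutated, and 3 were labelled WT, called grna+/+ here. Each library held the unsorted, strained marrow of 1 fish, and the labels give no further treatment. Neither the altered part of grna nor the sex, age or clutch of the fish is stated by the labels.

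Leukocytes move by pushing out a sheet of branched actin. Exchange factors of the vav and dock families load small GTPases with GTP, the GTPases switch on WASP and WAVE proteins, and these activate the Arp2/3 complex, which starts new filaments on the side of old ones. Profilin feeds actin monomers to growing ends, capping protein stops the growth, coronin and cofilin take old filaments apart, and L-plastin ties filaments into bundles. Kindlins switch integrins on, so that the cell can grip what it crawls over. Kidney marrow is where adult fish make blood, and it holds neutrophils, macrophages, lymphocytes, thrombocytes and erythroid cells beside kidney tubules and vessels.

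In limma, 1 of 42 tested members rose in grna-/-, the leiomodin gene lmod2a, and none fell, at a Benjamini-Hochberg adjusted p below 0.05 over all 10750 genes tested. Over all these genes, 1.15% were called, with 0.660% rising and 0.493% falling. At an unadjusted p below 0.05 there were 2 members higher (4.76%) and 5 lower (11.9%), against 10% and 7.61% of all tested genes. The median log2 fold change of the members was -0.02, against 0.07 for all tested genes. The remaining gene, the coronin coro2a, was below the bound for testing, a mean of 1 TPM. It averaged 0.394 ± 0.234 TPM in the grna+/+ fish and 0.194 ± 0.0763 TPM in grna-/- (SD, n = 3 each). lmod2a, without a read in grna+/+, reached that bound through the grna-/- libraries alone. TPM is the read count per gene length, scaled to an equal total in every library, and fold changes are grna-/- minus grna+/+ on log2(TPM + 1), which understates changes of low genes. With the replicate number as a block, lmod2a was again the single called member, against 2.52% of all genes called, 1.39% rising and 1.13% falling. When libraries were weighted by their quality, 9 members were called (21.4%), against 22.8% of all genes. With these weights lmod2a, tmod4, dock11 and dock4b rose, and arpc1a, arpc5a, pfn2, tmod2 and fermt3b fell.

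The reads counted per library ran from 11080875 to 14075134, and 12842 to 13048 genes were above 0. grna, the check on the genotype labels, was at 134.7 to 151.2 TPM in the grna+/+ fish, against 65.2 to 73.98 TPM in grna-/- (log2 fold change -1.02, SE 0.129, limma adjusted p = 0.0186). The adjusted p of grna was 0.0836 without grna+/+ replicate 3 and 0.0526 to 0.093 without any 1 grna-/- library. Of 11 tested erythroid markers 5 rose, and of 13 tested neutrophil markers none was called. All 13 nevertheless had a log2 fold change below 0, against 4573 of all 10750 tested genes. With the replicate number as a block, 7 erythroid markers rose and 5 neutrophil markers fell (srgn, illr4, adam8a, lect2l and ncf1). Summed over 12 erythroid markers, TPM was 42510, 21330 and 50650 in the grna+/+ fish numbered 1 to 3, against 80970, 93640 and 82260 in the mutants. The sum of 14 neutrophil markers was 54500, 48930 and 57740 TPM in the grna+/+ fish and 48530, 26040 and 39910 TPM in grna-/-. The genes lyz and lect2l made up most of the neutrophil sum, with 33690 and 10470 TPM in grna+/+ replicate 1. In such bulk samples fewer cells of a type and less RNA per cell cannot be told apart, and the part of cell makeup in the results was not tested.

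The members covered a wide range of levels. 3 averaged at least 1000 TPM over the 6 libraries, 19 lay between 100 and 1000, 8 between 10 and 100, 12 between 1 and 10, and 1 below 1. Together they took 1.1% to 1.57% of a library, 14400 ± 1580 TPM in the grna+/+ fish and 13800 ± 2450 TPM in grna-/- (SD, n = 3 each). The profilin pfn1 alone made up 34.2% to 38.5% of that sum.

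**Figure D1:**
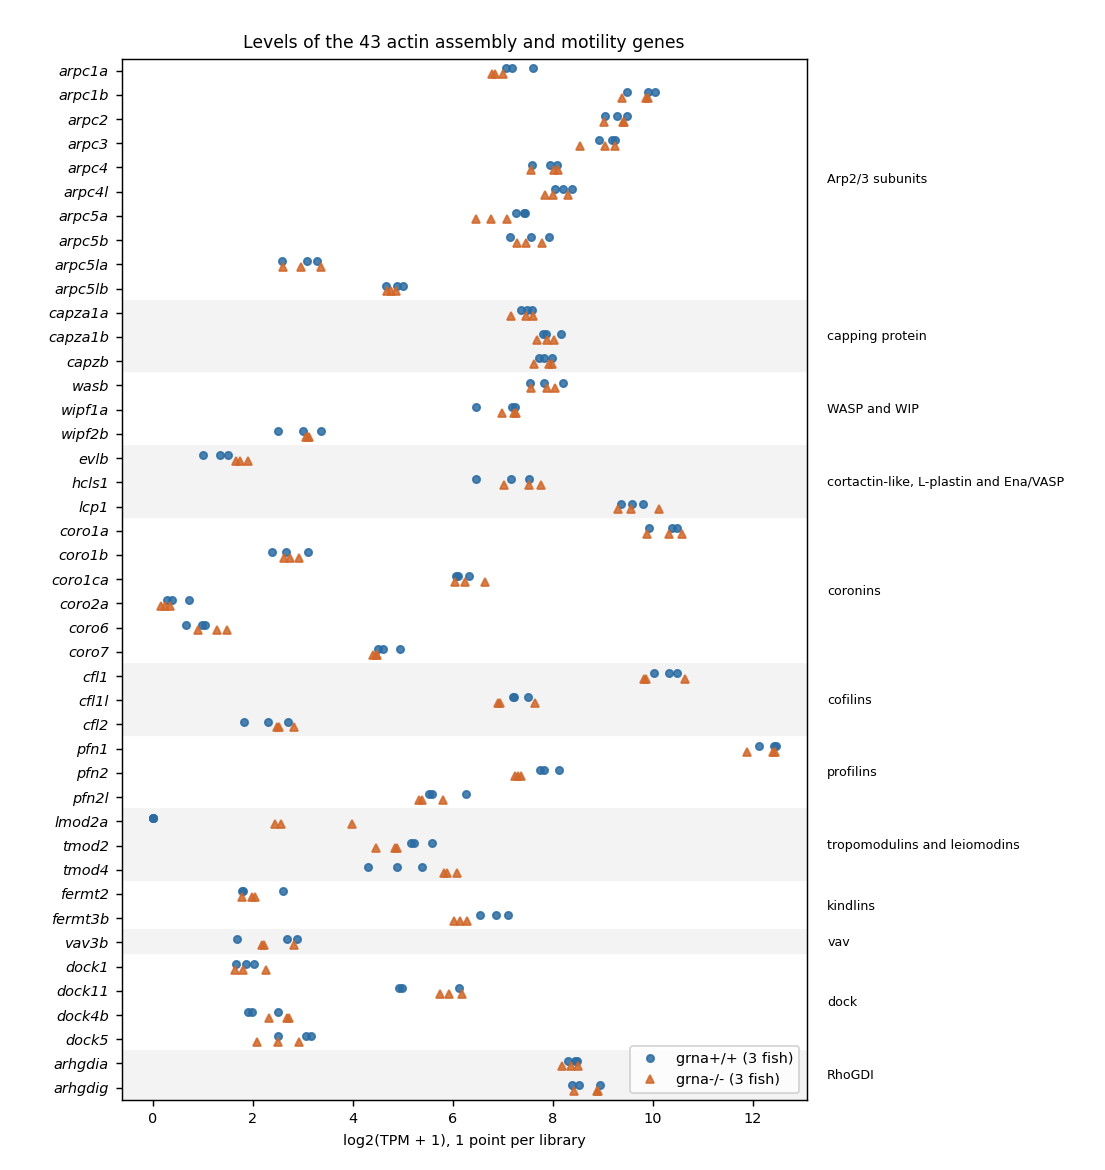
Level of each of the 43 members as log2(TPM + 1) on the horizontal axis, with 1 point per library, circles for the 3 grna+/+ fish and triangles for the 3 grna-/- fish, grouped by role. The genotypes overlap for most members, lmod2a stands at 0 in every grna+/+ library, and tmod4 and evlb are higher and fermt3b, pfn2, tmod2, arpc5a, arpc1a and coro7 lower in each grna-/- library than in any grna+/+ library.

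Of the exchange factor genes, 4 dock genes and 1 vav gene, vav3b, had a row, and none of these was called. The exchange factor gene dock11, which in mammals acts on Cdc42, was at 68.62, 29.44 and 30.58 TPM in grna+/+ replicates 1 to 3, against 59.46, 52.91 and 71.82 TPM in the grna-/- replicates in the same order, as in all lists of 3 values below. grna+/+ replicate 1 lay among the grna-/- libraries, and the log2 fold change was 0.61 (95% interval -0.11 to 1.33, limma adjusted p = 0.346). dock4b averaged 3.46 ± 1.05 TPM in the grna+/+ fish and 5.01 ± 0.856 TPM in grna-/- (SD, n = 3 each, limma adjusted p = 0.36), with overlap between the groups. dock5, a relative of the Rac activator dock1, averaged 6.68 ± 1.74 and 4.85 ± 1.67 TPM (adjusted p = 0.46). dock1 itself averaged 2.64 ± 0.473 and 2.79 ± 0.87 TPM, and the exchange factor vav3b 4.7 ± 2.21 and 4.45 ± 1.44 TPM. dock11 took 75.6% ± 5.42 of the summed TPM of these 4 dock genes in grna+/+ and 82.6% ± 5.05 in grna-/- (SD, n = 3 each). No other dock gene had a row, so its share of the whole family cannot be given.

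RhoGDIs hold small GTPases in the cytosol in their inactive form. arhgdig was at 492.1, 332.2 and 370 TPM in the grna+/+ fish, against 479.1, 341.5 and 471.2 TPM in grna-/-. The groups overlapped fully, with a log2 fold change of 0.12 (95% interval -0.32 to 0.55). arhgdia averaged 340 ± 21 and 328 ± 35.4 TPM (SD, n = 3 each, log2 fold change -0.05, 95% interval -0.34 to 0.23).

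WASP, the Wiskott-Aldrich syndrome protein, is the activator of the Arp2/3 complex in blood cells, and WIP proteins stabilise it. The WASP gene wasb was at 293, 186.4 and 226.4 TPM in the grna+/+ fish, against 262.4, 235.2 and 187.5 TPM in grna-/- (log2 fold change -0.03, 95% interval -0.48 to 0.42). Its partner wipf1a was at 150.9, 87.07 and 144.9 TPM in the grna+/+ fish, against 152.5, 125.5 and 147.9 TPM in grna-/-. Neither gene separated the genotypes, and the lowest wipf1a value was that of grna+/+ replicate 2. wipf2b was much lower, at 7.01 ± 2.3 and 7.58 ± 0.176 TPM (SD, n = 3 each).

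The Arp2/3 complex has 7 subunits, the actin-related proteins Arp2 and Arp3 and 5 smaller ones that arpc genes encode. None of the 10 arpc genes was called, and their log2 fold changes ran from -0.61 to 0.02 with a median of -0.09. arpc2, the scaffold subunit, was at 714.5, 525.9 and 621.8 TPM in the grna+/+ fish, against 690.6, 521.9 and 673.5 TPM in grna-/-. The groups overlapped almost fully, with a log2 fold change of 0.02 (95% interval -0.34 to 0.38, limma adjusted p = 0.959). arpc1b, the p41 subunit gene linked to immune deficiency in humans, averaged 909 ± 179 and 850 ± 159 TPM (log2 fold change -0.09, 95% interval -0.53 to 0.34). arpc3 averaged 559 ± 66.1 and 503 ± 120 TPM, arpc4 236 ± 41.2 and 241 ± 45 TPM, and its paralog arpc4l 297 ± 34.9 and 266 ± 44.1 TPM (SD, n = 3 each). Paralogs of similar sequence can share reads, so the split between them is uncertain.

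The lowest of these fold changes was that of arpc5a, one of the genes of the p16 subunit. It was at 153.2, 173.3 and 170.6 TPM in the grna+/+ fish, against 108.2, 86.92 and 134 TPM in grna-/-. All grna-/- libraries lay below all grna+/+ libraries, but the log2 fold change of -0.61 (95% interval -1.01 to -0.21) did not pass (limma adjusted p = 0.151). Its paralog arpc5b was at 242.2, 140.7 and 189.6 TPM in the grna+/+ fish, against 218.9, 155.5 and 175.2 TPM in grna-/-, with full overlap (log2 fold change -0.04, 95% interval -0.54 to 0.46). arpc5a made up 42.7% ± 6.77 of the p16 transcripts in grna+/+ and 33.6% ± 4.92 in grna-/-, and these shares overlapped between the genotypes. arpc5la and arpc5lb averaged 7.1 to 28.1 TPM in both genotypes.

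arpc1a, the other p41 gene, was at 132.5, 192.8 and 144.1 TPM in the grna+/+ fish, against 114, 128.1 and 109.4 TPM in grna-/-. Again no grna-/- library reached a grna+/+ library, and again the difference did not pass (log2 fold change -0.40, 95% interval -0.79 to -0.01, limma adjusted p = 0.274). arpc1a and arpc1b lie next to each other in the RefSeq gene table of assembly GRCz12tu. Whether reads were counted by strand is not given, so reads from such neighbours may not be told apart where they overlap.

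Summed over paralogs, mean subunit levels per length lay between 311 and 1070 TPM. Arp3 was at 597 ± 89.6 TPM in the grna+/+ fish and 603 ± 57.7 TPM in grna-/-, and Arp2 at 339 ± 24.3 and 311 ± 52 TPM (SD, n = 3 each). p41 was the highest at 1070 ± 147 and 967 ± 150 TPM, and p34, p21 and p20 lay between 503 and 629 TPM. p16 had the lowest ratio of grna-/- to grna+/+, 0.833, from 392 ± 38.7 to 326 ± 46.4 TPM, with 354.1 to 431.4 TPM in the grna+/+ fish and 274.1 to 362.7 TPM in grna-/-. These ranges overlapped in every subunit.

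**Figure D2:**
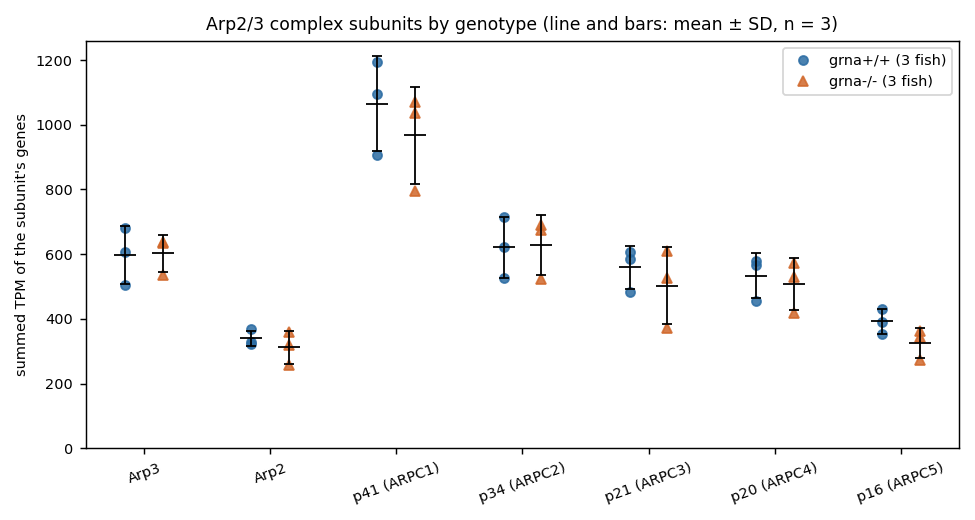
Summed TPM of the genes of each Arp2/3 subunit, with 1 point per library, circles for grna+/+ and triangles for grna-/-, and a line with bars for the mean ± SD (n = 3). The genotypes overlap in all subunits, and p41 stands above the others in both.

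Factors that hold or remove branches were not called either. hcls1, the blood cell relative of cortactin that keeps Arp2/3 branches in place, was at 182.7, 87.06 and 143.3 TPM in the grna+/+ fish, against 215.9, 128.6 and 182.4 TPM in grna-/- (log2 fold change 0.38, 95% interval -0.29 to 1.05, limma adjusted p = 0.5). The coronin coro1a, a leukocyte gene whose protein helps to take branches apart, was at 1434, 971.1 and 1337 TPM in the grna+/+ fish, against 1288, 950.6 and 1545 TPM in grna-/- (log2 fold change 0.01, 95% interval -0.47 to 0.48). For both genes the number 2 library was the lowest of each genotype, and the genotypes overlapped. coro1a carried 92.3% ± 0.991 of all coronin TPM in grna+/+ and 91.9% ± 1.58 in grna-/-. Of the other coronins, coro7 averaged 24.9 ± 4.27 and 20.9 ± 0.666 TPM (SD, n = 3 each, limma adjusted p = 0.49) without overlap, and coro1ca 70.8 ± 7.02 and 79.9 ± 17.7 TPM. coro1b and coro6 were at a mean below 6 TPM in both genotypes, and neither passed.

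Profilins carry actin monomers to growing filament ends. pfn1, the most abundant member, was at 5621, 4444 and 5537 TPM in the grna+/+ fish, against 5606, 3763 and 5421 TPM in grna-/-. Replicate 2 was again lowest in each genotype, and the log2 fold change of -0.09 (95% interval -0.47 to 0.29) did not pass (limma adjusted p = 0.792). pfn2 was at 213.5, 278.5 and 225.1 TPM in the grna+/+ fish, against 149.8, 163.3 and 158.1 TPM in grna-/-. Its groups did not overlap, and it had the second smallest p of the members, with a log2 fold change of -0.59 (95% interval -0.91 to -0.27, limma adjusted p = 0.0926, or 0.069 with the replicate number as a block). pfn2l averaged 56.2 ± 17.6 and 44.8 ± 8.49 TPM (SD, n = 3 each). evlb, an Ena/VASP gene whose protein family lengthens filaments, was at 1.852, 1.01 and 1.529 TPM in the grna+/+ fish, against 2.762, 2.163 and 2.375 TPM in grna-/-, from 15 to 39 reads a library (log2 fold change 0.49, 95% interval -0.04 to 1.02, limma adjusted p = 0.317).

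Capping protein, a pair of an alpha and a beta chain, closes the fast-growing end. capzb was at 251.8, 211.5 and 227.4 TPM in the grna+/+ fish, against 252.4, 195.4 and 241.7 TPM in grna-/- (log2 fold change -0.01, 95% interval -0.34 to 0.32). The alpha genes capza1a and capza1b averaged 179 ± 13.3 and 247 ± 32.9 TPM in the grna+/+ fish and 171 ± 25.8 and 233 ± 26.8 TPM in grna-/- (SD, n = 3 each). The split between the alpha genes was steady: capza1a made up 42.1% ± 2.16 of their sum in grna+/+ and 42.3% ± 1.06 in grna-/-.

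Cofilins cut old filaments. cfl1 was at 1042, 1291 and 1429 TPM in the grna+/+ fish, against 908.2, 935.1 and 1596 TPM in grna-/-, where replicate 3 was the highest of all 6 libraries and the others the lowest (log2 fold change -0.17, 95% interval -0.68 to 0.35). cfl1l was at 180.6, 149.7 and 145.9 TPM in the grna+/+ fish, against 122.8, 119.2 and 199.4 TPM in grna-/-. It followed cfl1 in grna-/-, with replicate 3 the highest, and it did not pass (limma adjusted p = 0.744). cfl2, in mammals the muscle cofilin, averaged 4.01 ± 1.52 and 5.16 ± 0.816 TPM (SD, n = 3 each). lcp1, which encodes the leukocyte filament bundler L-plastin, was at 897.9, 663.3 and 772.5 TPM in the grna+/+ fish, against 753.6, 627.9 and 1116 TPM in grna-/- (log2 fold change 0.07, 95% interval -0.42 to 0.56).

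Tropomodulins cap the slow-growing end of filaments, and leiomodins, their relatives, start new filaments in muscle. This family held the called gene. lmod2a had no read in any of the 3 grna+/+ libraries and stood at 14.94, 4.937 and 4.444 TPM in grna-/- replicates 1 to 3, from 64, 27 and 21 reads. Every grna-/- library was above every grna+/+ library, with replicate 1 well above the others. Taking 3 reads over the whole grna+/+ group as a floor (0.204 TPM), the grna-/- mean of 8.11 ± 5.92 TPM (SD, n = 3) was 39.7-fold that floor. Without grna-/- replicate 1 it was 23-fold. The floor bounds the grna+/+ side only, so neither value is a lower bound on the fold change. The fold change in limma was 3.0 as log2 (SE 0.403, adjusted p = 0.0221). lmod2a passed the bound for testing only through the group where it was high, which limits what this p can show. The call was lost without grna+/+ replicate 3 (adjusted p = 0.0788), without grna-/- replicate 2 (0.0645) and with a pseudocount of 5 TPM (0.0675). Of 21 genes of skeletal and cardiac muscle, 1 reached the bound for testing and was not called. These 21 genes summed to 5.697 to 6.12 TPM in the grna+/+ fish and 6.078 to 7.36 TPM in grna-/-, and myl1, myl7 and myhz2 were at 0 throughout.

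lmod2a has a neighbour of the same pathway. In the RefSeq gene table the protein-coding gene next to it on 1 side is wasla, an N-WASP gene and thus an activator of Arp2/3. wasla belongs to the lists of partner genes and not to the members. wasla was at 9.97, 9.824 and 5.506 TPM in the grna+/+ fish, against 32.52, 14.52 and 13.26 TPM in grna-/-. Its groups did not overlap either, and its order among the grna-/- libraries was that of lmod2a, but it did not pass (log2 fold change 1.09, SE 0.359, limma adjusted p = 0.199). slc13a1, a kidney tubule sulfate transporter gene that is the fourth gene from lmod2a on the other side, was at 11.35, 39.06 and 3.821 TPM in the grna+/+ fish, against 96.51, 49.44 and 28.75 TPM in grna-/- (adjusted p = 0.229). It too was highest in grna-/- replicate 1, while grna+/+ replicate 2 lay among the grna-/- libraries. zgc:153935, the next gene beyond wasla, was at 10.54 to 18.51 TPM in the grna+/+ fish and 12.42 to 17.75 TPM in grna-/-, with full overlap. These neighbours were looked up after the values of lmod2a were seen, and whether they share reads or a cause with it was not tested. The genes between lmod2a and slc13a1, which are asb15a, iqub and LOC141381000, had no row under these names. Nor did LOC137487344 and si:ch211-91p5.3, the next genes beyond zgc:153935.

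The pair of tropomodulins stood on opposite sides of 0, and neither passed. tmod4 carries its current symbol in that gene table, with sktmod as a synonym. It was at 28.54, 18.78 and 41.11 TPM in the grna+/+ fish, against 55.83, 66.64 and 57.78 TPM in grna-/- (log2 fold change 1.07, 95% interval 0.46 to 1.67, limma adjusted p = 0.111). tmod2 was at 34.94, 36.21 and 46.94 TPM in the grna+/+ fish, against 28.73, 21.19 and 27.85 TPM in grna-/- (log2 fold change -0.58, 95% interval -1.02 to -0.15, limma adjusted p = 0.191). Neither gene overlapped between the genotypes. No other tropomodulin gene had a row. tmod4 took 41.9% ± 6.8 of the summed TPM of tmod2 and tmod4 in grna+/+ and 69.8% ± 5.32 in grna-/- (SD, n = 3 each), also without overlap. The exact two-sided permutation p of this share was 0.1, the lowest that 6 libraries in equal groups allow. Lack of overlap alone fixes that value, so it adds no support. Red cells use a tropomodulin in their membrane skeleton, and the values here do not show which gene encodes it. The summed erythroid markers put the 6 libraries in the same order as tmod4, from grna+/+ replicate 2 up to grna-/- replicate 2. The globin genes hbaa1 and ba1l made up most of that sum, with 20430 and 21080 of 42510 TPM in grna+/+ replicate 1. Taken singly, alas2, ba1l and klf1 gave the same order. hbaa1, slc4a1a, epb41b, ank1a, sptb, sox6, nt5c2l1 and gata1a did not. The part of erythroid RNA in the tropomodulin values was not tested.

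**Figure D3:**
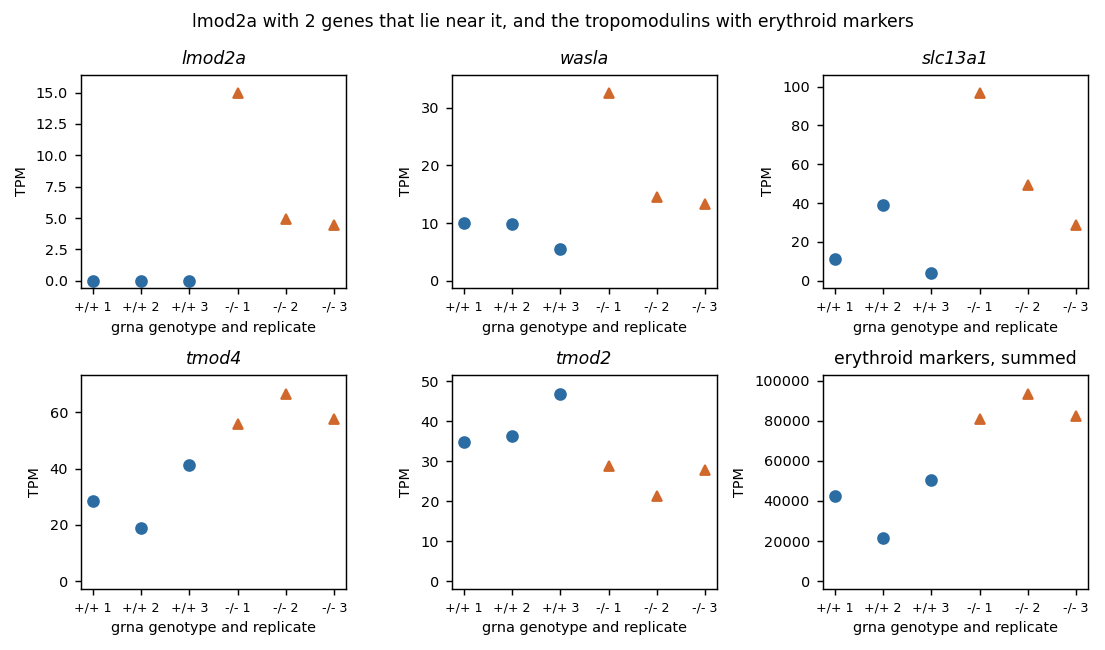
TPM in each library, circles for grna+/+ and triangles for grna-/- replicates 1 to 3, for lmod2a, for wasla and slc13a1 that lie near it, for tmod4 and tmod2, and for the sum of 12 erythroid markers. lmod2a, wasla and slc13a1 are all highest in grna-/- replicate 1. tmod4 orders the libraries as the erythroid sum does, most of which is hbaa1 and ba1l.

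Kindlins bind the tails of integrins and switch them on, and kindlin-3 is the form of blood cells. Its gene fermt3b was at 92.86, 136.1 and 115.2 TPM in the grna+/+ fish, against 69.69, 64.55 and 76.65 TPM in grna-/-. All grna-/- libraries were below all grna+/+ libraries, with a log2 fold change of -0.69 (95% interval -1.08 to -0.29) that did not pass (limma adjusted p = 0.116, or 0.0874 with the replicate number as a block). fermt2, the more widely used kindlin, averaged 3.33 ± 1.51 and 2.86 ± 0.369 TPM (SD, n = 3 each).

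In all, 6 members lay lower in every grna-/- library than in any grna+/+ library (14.3%) and 3 lay higher (7.14%), against 10.6% and 14% of all tested genes. The lower ones were arpc1a, arpc5a, coro7, pfn2, tmod2 and fermt3b, and the higher ones evlb, lmod2a and tmod4. For each of them the two-sided permutation p, exact over all regroupings, was also 0.1. The lack of overlap by which they were picked fixes that value, so it adds no support. The 95% interval shows, on log2(TPM + 1), what size of change the 6 libraries leave possible. Over all tested members it stayed within a 2-fold change either way for 33 of 42 tested members and within 1.5-fold for 16. Among the 22 members at a mean of at least 100 TPM, these counts were 20 and 14, and 18 had a log2 fold change within 0.2 of 0. For the 12 members that averaged 1 to 10 TPM, the added 1 TPM narrows the interval, which thus does not bound the change in TPM. The log2 fold change of coro6 was 0.32 (SE 0.262), but 0.56 (SE 0.472) with a pseudocount of 0.1 TPM.

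**Figure D4:**
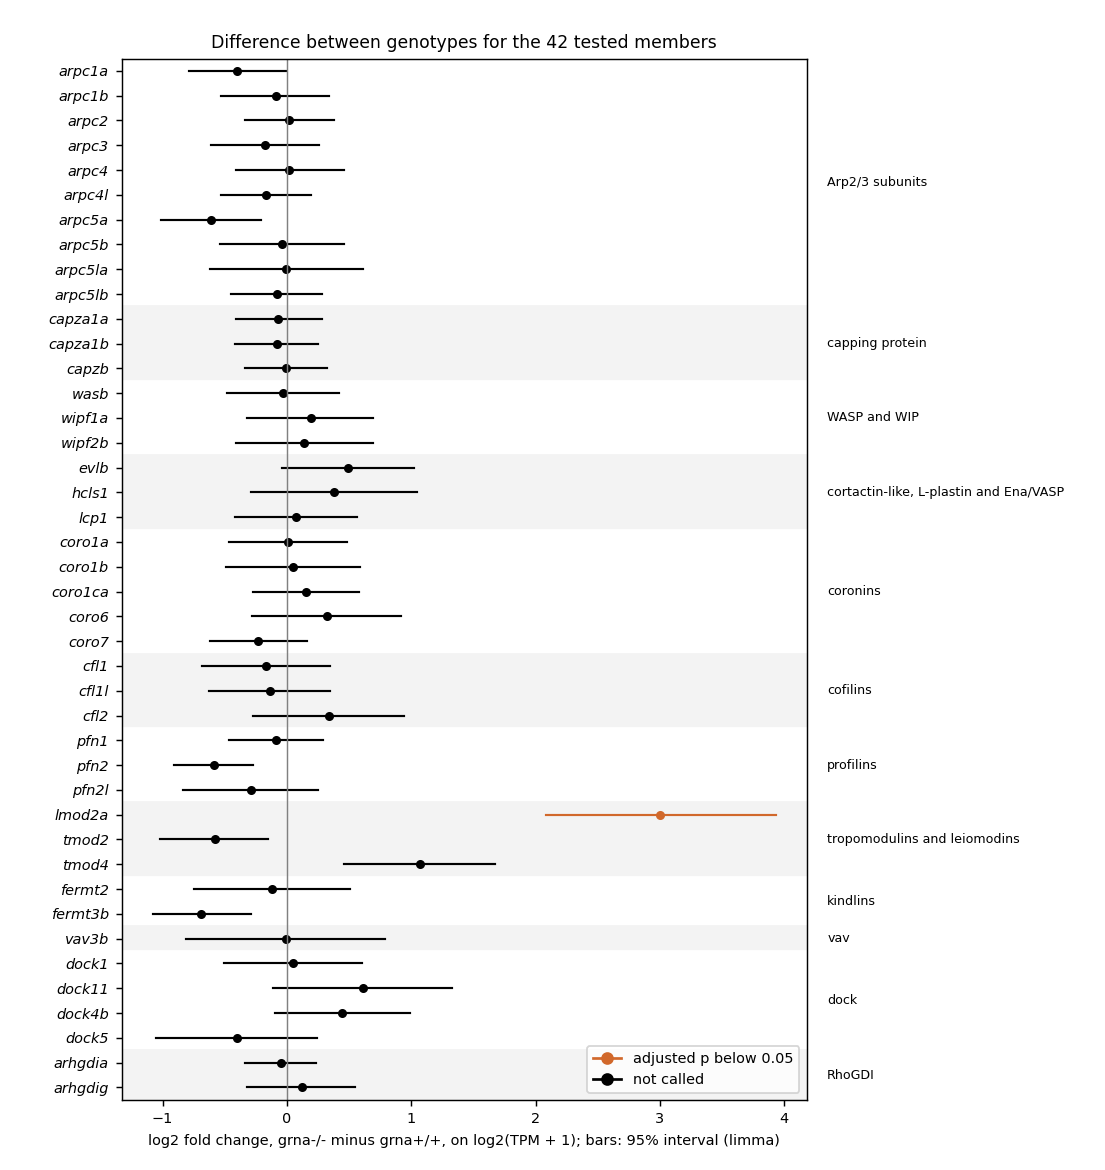
Log2 fold change of each tested member, grna-/- minus grna+/+ on log2(TPM + 1), with its 95% interval from limma, grouped by role. lmod2a, in orange, is the called member, and the intervals of arpc1a, arpc5a, pfn2, tmod2 and fermt3b lie below 0 and that of tmod4 above 0 without passing after adjustment.

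Partner genes of the same pathway were counted in the same way. Of 114 tested genes on 9 lists, none rose or fell in limma, in the fit of all libraries or with voom on recovered reads. At an unadjusted p below 0.05, 4 were higher (3.51%) and 14 lower (12.3%), against 10% and 7.61% of all tested genes. Without overlap between the genotypes, 18 were lower in grna-/- (15.8%) and 7 higher (6.14%), against 10.6% and 14% of all tested genes. rac2, picked after its values were seen as the Rac of neutrophils, was at 512.2 to 567.2 TPM in the grna+/+ fish and 424.2 to 684 TPM in grna-/- (adjusted p = 0.913).

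Among the lists of filaments and motors, the non-muscle myosin gene myh9a was at 329, 374.4 and 323.5 TPM in the grna+/+ fish, against 224.8, 165.8 and 250.4 TPM in grna-/- (log2 fold change -0.70, SE 0.169, limma adjusted p = 0.105). For the tropomyosin tpm3 the log2 fold change was -0.44 (SE 0.119, limma adjusted p = 0.137). Of 19 tested genes for bundling, tropomyosin and myosin, 13 had a fold change below 0, against 4573 of all 10750 tested genes. In this list 6 genes were lower without overlap (31.6%) and 0 higher, against the same 10.6% and 14%. Neither actin gene was called: actb2 was at 16590 to 19800 TPM in the grna+/+ fish and 16430 to 22880 TPM in grna-/-, and actb1 at 5819 to 7446 and 4773 to 6157 TPM (adjusted p = 0.258). The list of 20 genes for severing and monomer binding had a median log2 fold change of 0.03, with twf1b (adjusted p = 0.361) and ssh2b (0.356) lowest in p. In the WAVE list of 15, wasla and wasf3b (adjusted p = 0.258) came first, and the median was -0.01.

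Arp3, as actr3, and Arp2, as actr2a, had adjusted p of 0.953 and 0.619. The 3 tested formins, which build unbranched filaments, were led by fmnl3 (log2 fold change -0.36, adjusted p = 0.334) and diaph3 (0.33, adjusted p = 0.435). Of 18 regulators and effectors of GTPases, arhgap15 (adjusted p = 0.423) and rock2a (0.481) had the smallest p. Of 15 integrin genes and activators, rap1b, a GTPase that turns integrins on, was at 226.8 to 240 TPM in the grna+/+ fish and 157 to 195.2 TPM in grna-/- (log2 fold change -0.41, SE 0.127, limma adjusted p = 0.178), and itgb1b was at 133.3 to 152.1 and 110.8 to 121.7 TPM (adjusted p = 0.268). Neither overlapped between the genotypes, and the list median was -0.20.

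Many members shared an order of the libraries within each genotype. Of the 22 members at a mean of at least 100 TPM, 15 (68.2%) were lowest in replicate 2 of grna+/+ and also lowest in replicate 2 of grna-/-, against 16.2% of the 1126 other genes at that level. grna-/- replicate 2 was the lowest of all 6 libraries for 14 of the 22 (63.6%), and it was also the most frequent lowest library of the other genes (31.1%). Their median deviation from the gene's own mean, as log2, was 0.20, -0.14 and 0.06 in the grna+/+ fish, against 0.10, -0.27 and 0.12 in the mutants. For the other genes at that level it ran from -0.08 to 0.08. Of the 22, arpc1a, arpc5a and pfn2 went the other way in grna+/+, with their highest value of all libraries in replicate 2. arpc5a still had its lowest value of all libraries in grna-/- replicate 2 (86.92 TPM). cfl1 and capza1a also lay above their own mean in grna+/+ replicate 2, by 0.138 and 0.043 as log2.

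This pattern was found after the values were seen and got no test. Of the 14 neutrophil markers, 5 were likewise lowest of their genotype in both libraries numbered 2. In grna+/+ replicate 2 the neutrophil markers were mixed, and 6 of the 14 had their highest value of all libraries there. In grna-/- replicate 2, 12 of the 14 had their lowest. The part of neutrophil RNA in the pattern was not tested. Without the libraries numbered 2 no member was called, and the value of lmod2a was 3.22 as log2 (SE 0.505, limma adjusted p = 0.0626).

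**Figure D5:**
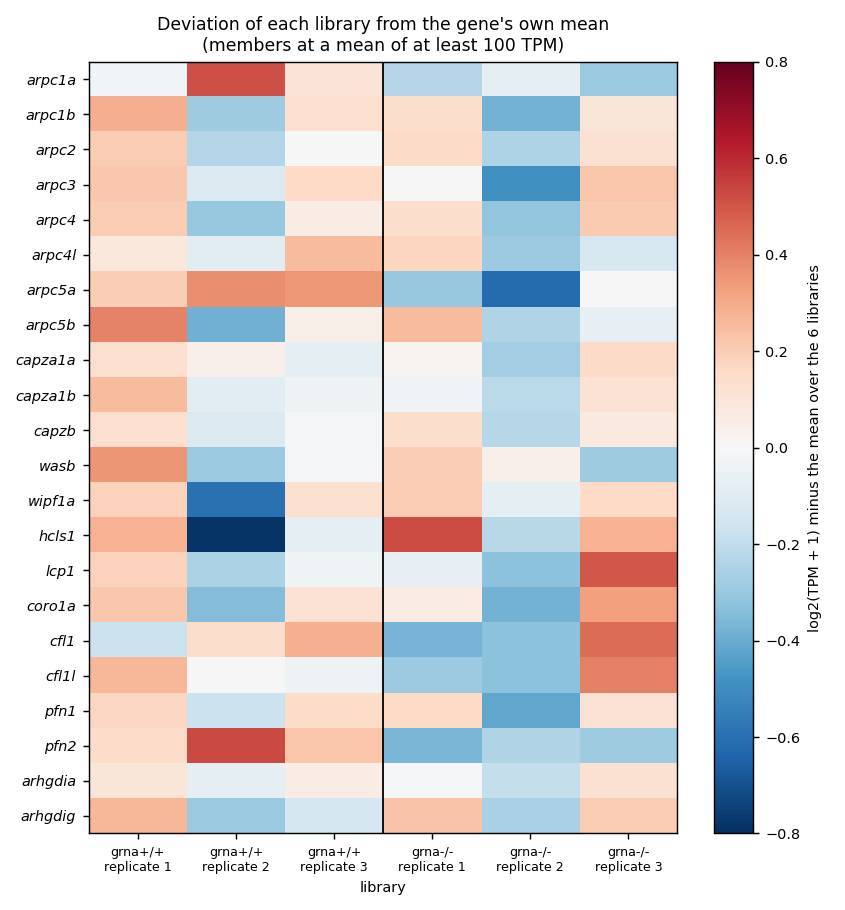
Heat map of the 22 members at a mean of at least 100 TPM, with libraries in columns and colour for log2(TPM + 1) minus the gene's mean over the 6 libraries, blue for lower and red for higher. Most rows are blue in replicate 2 of both genotypes, while arpc1a, arpc5a and pfn2 are the most red in grna+/+ replicate 2.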

How the data were processed

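The authors deposited TPM, with a column for each of the 6 libraries. The labels name a stranded mRNA kit. The submitters' processing notes name Subread, featureCounts, DESeq2 1.26.0 and the builds GRCz10 and danRer10. The making of the TPM and the use of strand in counting are not given in the sources used here. A row named Total names no gene and served as depth only. For all 11875 genes above 0 in every library, TPM stood in ratios of whole reads (relative tolerance 1e-09), and the reads so recovered summed to 99.27% to 99.3% of the Total row. A common factor of a gene would be missed, and floors cover counting error only.

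Genes at a mean of at least 1 TPM (10750) were tested on log2(TPM + 1) with limma 3.58.1 (R 4.3.3), with genotype alone and a variance trend. Tests were two-sided, adjusted over all genes. The main fit was also run on simulated data. Changes were set there only in genes with more reads than lmod2a, and genes of a library shared no effect beyond depth. The simulation thus bears neither on the call of lmod2a nor on the order of the libraries. Replicates were separate fish. The genes followed through the alternatives are called members, the 3 most abundant and the 2 of smallest p in each role group, and the 2 of smallest p in each partner list. The single genes of 1 partner list, other than rac2, are not reported here. The members and lists were chosen with earlier results of these data known. The labels do not pair the fish. The deviations of same-numbered fish correlated at 0.136, 0.153 and 0.237 across genes, each above 0.1, but these come from the same values that were tested. Whether the fish are paired is thus not known. The replicate block served as a check that gives no independent support, and the model without it, as fixed, gave the main results. The RefSeq gene table of assembly GRCz12tu held all 43 symbols, 40 of them as current ones, and was used for names, neighbours and chromosomes only. In it, 6 members lie on chromosome 3 with grna: arpc1a, arpc1b, coro1a, coro7, arhgdia and arhgdig. At least 24 protein-coding genes lie between grna and each of them. Among these 6 members, arpc1a and coro7 were lower in grna-/- without overlap, as were 10.6% of all tested genes. For coro7 the lowest grna+/+ value was 21.58 TPM and the highest grna-/- value 21.49 TPM. Any part of the position of these genes was not tested.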

Additional observations from a re-analysis of the deposited data

How the results depend on the processing

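18 alternatives were run, of which voom on recovered reads and leaving both number 2 libraries out were chosen after seeing the data. The planned count tests were not run because the table holds TPM. The count of called members (1) became 0 with a pseudocount of 5 TPM, with a bound of 5 TPM on the mean, which lmod2a does not reach, and without both number 2 libraries, and 9 with library weights. It was 0 to 1 when 1 library was left out, with 0 without grna+/+ replicate 3 and without grna-/- replicate 2. The count over all genes (124) became 44 with no bound on low values, 74 with a bound of 5 TPM, 76 with no variance trend, 72 with voom, 53 without both number 2 libraries, 2447 with library weights, and 16 to 204 when 1 library was left out (204 without grna+/+ replicate 1, 16 without grna+/+ replicate 3, and 33, 18 and 41 without grna-/- replicates 1, 2 and 3). With the replicate block it was 271, and the block changed no call of a member or of a partner gene, while it added 2 erythroid and 5 neutrophil markers. The count of called partner genes (0) became 19 with library weights and was 0 to 1 when 1 library was left out. The median of the members ran from -0.09 to 0.08. Of 961 values of 54 named genes, 68 changed sign, none with a call (smallest adjusted p 0.0666), so no direction is given for these genes. With quantile normalization they were 0.04 for arpc1b, 0.03 for capza1a and capza1b, 0.11 for capzb, 0.08 for wasb, -0.03 for wipf2b, 0.07 for arhgdia and -0.26 for actb2. With median ratio scaling they were -0.05 for arpc2 and actr3, 0.00 for lcp1, -0.06 for coro1a and -0.07 for actb2. Scaled without globin genes they were 0.06 for capzb, 0.00 for capza1a, 0.04 for wasb, 0.05 for vav3b and 0.02 for arhgdia. With library weights they were 0.08 for capzb, 0.05 for capza1a, 0.10 for wasb, -0.06 for coro1a, -0.11 for coro1ca, 0.14 for fermt2 and 0.80 for vav3b. With voom they were 0.02 for capzb and 0.04 for vav3b, and with a pseudocount of 0.1 TPM 0.01 for vav3b. Without both number 2 libraries they were 0.05 for capzb, 0.06 for capza1a, -0.07 for wipf2b, 0.10 for fermt2, 0.32 for vav3b and -0.02 for actr3. When 1 library was left out, the ranges were -0.26 to 0.07 for arpc1b, -0.10 to 0.15 for arpc2, -0.33 to 0.02 for arpc3, -0.16 to 0.02 for capza1b, -0.08 to 0.10 for capzb, -0.16 to 0.06 for capza1a, -0.19 to 0.14 for wasb, -0.06 to 0.33 for wipf1a, -0.09 to 0.34 for wipf2b, -0.17 to 0.25 for lcp1, -0.16 to 0.20 for coro1a, -0.01 to 0.29 for coro1ca, -0.20 to 0.09 for pfn1, -0.26 to 0.15 for fermt2, -0.38 to 0.23 for vav3b, 0.00 to 0.28 for arhgdig, -0.13 to 0.03 for arhgdia, -0.10 to 0.12 for actr3 and -0.15 to 0.09 for actb2. The cause of these changes was not tested. The depth limits evlb, lmod2a, coro6 and coro2a, at 64 reads or fewer in each library.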
